A study of Arabidopsis thaliana with 6 samples.

Results

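GDSL-type esterases and lipases are a large family of plant hydrolases, named for the Gly-Asp-Ser-Leu motif around their active serine. Most carry a signal peptide and act outside the cell, in the cuticle or in the endoplasmic reticulum. Their best known members polymerise cutin, take part in defence, or, as the epithiospecifier modifier ESM1 does, turn the breakdown of glucosinolates (the mustard oil precursors of Arabidopsis) toward isothiocyanates. The set described here was a list of 60 Arabidopsis loci of this family, taken by locus. Of the 60 loci, 44 had a probe set that the probe table assigns to 1 gene, out of 13286 such genes on the array, and these 44 carry the counts below. Another 4 loci, ESM1 among them, are named only through Supplementary Data 1 of the study, a table of probe sets listed for their change in these same samples, so they are described apart and without a test. A further 4 loci lie on probe sets shared by several genes, and 8 loci (among them GLIP2 to GLIP5, MVP1, FXG1 and CDEF1) had no named probe set and were not analysed here.

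The study asked which genes depend on RCB, a protein of phytochrome signaling and chloroplast biogenesis. It compared rcb-10, a T-DNA insertion line in the Col-0 background with the insertion in the second intron of RCB and no detectable RCB protein, with the Col-0 wild type on ATH1 arrays, 3 arrays a genotype. After 4 days of stratification, rcb-10 and Col-0 seeds were grown without sucrose, and whole seedlings were collected at 4 days of age in continuous red (R) light of 10 μmol per square meter and second, where rcb-10 is tall and albino. The mutant is represented by 1 allele. Since the RNA came from whole seedlings, fewer cells of a type and less RNA per cell cannot be told apart.

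All 6 arrays were scaled to the same trimmed mean, and signals correlated more closely within a genotype (r = 0.945 to 0.953) than between genotypes (0.919 to 0.928). Their median signals still differed by genotype, at 182 to 186 in rcb-10 and 206 to 210 in Col-0. Counts with each array centred on its median are therefore given as well. Signals are linear intensities, and 43.8, the highest signal of control probe sets with no added transcript, was taken as background. Between 19.5% and 21.7% of the probe sets were at or below it on each array. A change is the log2 of rcb-10 over Col-0, and a gene is called lower or higher where limma's p, adjusted over all 22746 probe sets tested, is under 0.05. Of 6 root markers, PYK10, EXPA7 and EXPA18 were measured and summed to 18812 to 20159 in rcb-10 and 18745 to 23573 in Col-0. Nearly all of this sum was PYK10 (18652 to 20026 in rcb-10 and 18382 to 23276 in Col-0). The root-hair expansins EXPA18 (change -1.50, adjusted p = 0.00433) and EXPA7 (-1.06, adjusted p = 0.0328) were called lower. EXPA18 passed in all 6 refits without 1 array, and EXPA7 only in the 1 without Col-0 replicate 2, and not after quantile normalization (0.0540) or median centring (0.0535). The green tissue marker RCA, Rubisco activase, gave 22251 to 24741 in rcb-10 and 21896 to 23990 in Col-0, and was the 1 measured of 5 markers of this tissue. RCA is on the study's list of direct targets that PIFs (phytochrome-interacting factors) repress, so its signal alone does not measure green tissue. The 3 measured of 5 pollen and anther markers summed to 41.8 to 69.0 in rcb-10 and 38.0 to 88.2 in Col-0, with 0 called. None of the epidermis and seed storage markers had a single-gene probe set in the probe table, so none was read. The part of the root-hair markers' change in the results below was not tested.

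Many of the listed GDSL genes were lower in rcb-10, and none was called higher. Of the 44 measured members, 19 (43.2%) were called lower and 0 higher, with 25 not passing the threshold. Over all probe sets, 10.2% were called lower and 6.76% higher, and over single-gene probe sets 9.05% were called lower. The members were chosen with earlier results of these data known, so these shares describe the listed loci and not the family. At an unadjusted p under 0.05, 23 members lay lower and 1, AT1G28640, lay higher, and the methods' t-test with the same adjustment called 13 lower and 0 higher. The change was below 0 for 33 members and above 0 for 11, or 31 and 13 when each array was centred on its median. The median change was -0.64 over the members and -0.04 over all probe sets. Measured on each array against the Col-0 mean, the median member stood at -0.74, -0.64 and -0.68 in the rcb-10 arrays and at 0.06, -0.02 and -0.05 in the Col-0 arrays, so no rcb-10 array came near the Col-0 arrays. Each Col-0 array is itself part of that mean, which draws its value toward 0. The genotypes did not overlap for 25 members (56.8%, against 40.6% of all probe sets), 24 of them lower in rcb-10 (23.1% of all probe sets) and 1 higher.

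The called members ranged in size of change from 1.42-fold to 4.63-fold lower, with adjusted p-values of 0.00381 to 0.0486. Of the 19, 11 also changed by at least 2-fold, the fold threshold of the study's methods (by this rule 4.41% of all probe sets were lower and 7.22% changed in either direction). With the methods' t-test in place of limma, 8 members passed both thresholds. Each of the 19 was above background on all 6 arrays. The 13 members that fell to background on at least 1 array all failed the threshold. Among the 35 members whose mean log2 signal was above that of the background, 19 (54.3%) were called lower, against 12.5% of the 17728 probe sets with such a mean. The 9 dimmer members included no call. The 12 members that stayed above background on all arrays but did not pass had changes of -0.73 to 0.40 and adjusted p-values of 0.0723 to 0.843.

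**Figure D1:**
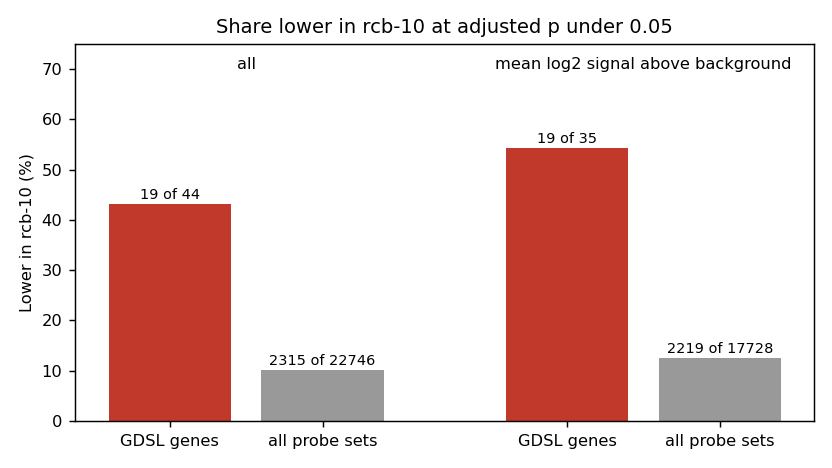
Share of GDSL genes (left bar of each pair) and of all probe sets (right bar) called lower in rcb-10, as a percent (y axis), over all that were tested and over those with a mean log2 signal above background. The bars stand at 43.2% (19 of 44) against 10.2% (2315 of 22746), and at 54.3% (19 of 35) against 12.5% (2219 of 17728). The GDSL genes were chosen with earlier results of these data known.

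**Figure D2:**
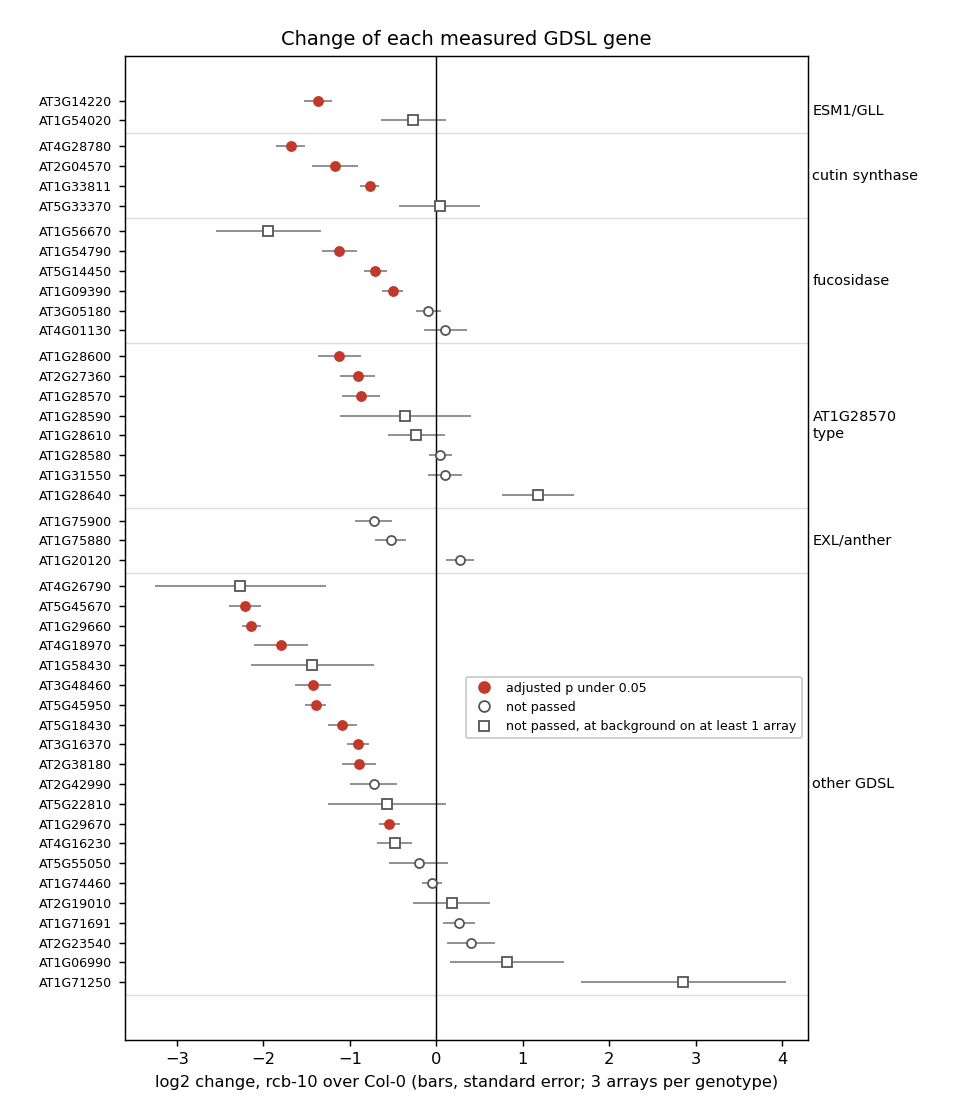
Log2 change of each of the 44 measured GDSL genes, rcb-10 over Col-0 (x axis, points with bars of 1 SE), ordered by family group (y axis). Filled symbols are the 19 called at an adjusted p under 0.05, all left of 0, and squares are the 13 members at or below background on at least 1 array, none of them filled.

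ESM1 and the GLL lipases are linked to glucosinolate breakdown and to the ER bodies, spindle-shaped compartments filled with the beta-glucosidase PYK10, with which GLL proteins form complexes. Of the 7 loci listed here, 2 had a single-gene probe set and 1 was called lower. ESM1 (AT3G14210, probe set 257008_at) had signals of 120.0, 243 and 225 in rcb-10, against 4185, 3575 and 4628 in Col-0. It was plainly above background in both genotypes, and no mutant array came near a wild-type one. The means were 196 ± 66.2 in rcb-10 and 4129 ± 528 in Col-0 (SD, n = 3 each), a change of -4.46 ± 0.30 (SE), or 22.0-fold lower in rcb-10. Its neighbour on the chromosome, AT3G14220 (257072_at), had signals of 683, 921 and 937 in rcb-10, against 2060.2, 2336 and 2101 in Col-0. These did not overlap either, and the gene was called lower, with a change of -1.37 ± 0.16 (SE; limma, adjusted p = 0.0092). The change of ESM1 minus that of AT3G14220 was -3.09 on the log2 scale. The next gene, GLIP4, was not analysed here.

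GLL22 (AT1G54000) and AT1G54010 (GLL23), which lie side by side, share 1 probe set (263153_s_at) that is named only through Supplementary Data 1 and cannot tell them apart. It read 644, 792 and 819 in rcb-10, against 3855, 2847 and 3468 in Col-0, a change of -2.17 ± 0.17 (SE) and a wide gap between the genotypes. AT1G54020, the next gene along, ran near background at 24.0, 53.6 and 63.1 in rcb-10, against 55.5, 47.0 and 53.8 in Col-0. The genotypes overlapped, and its change of -0.26 ± 0.38 did not pass (adjusted p = 0.678). The study lists this gene among the direct targets that PIFs repress.

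Cutin synthase-type lipases join hydroxy fatty acid esters into the cutin polyester of the cuticle, a role worked out first in tomato. Of 6 loci grouped here as cutin synthase-type or otherwise linked to the cuticle, 4 were measured and 3 were called lower, with a group median of -0.97. The grouping does not show that each of them joins cutin. AT4G28780 (253736_at) gave 245, 326 and 250.2 in rcb-10, against 976, 803 and 845 in Col-0. The mutant arrays stood well under the wild-type arrays, a change of -1.68 ± 0.16 (adjusted p = 0.00619). AT2G04570 (263809_at) gave 457, 843 and 734 in rcb-10, against 1385, 1324 and 1760.4 in Col-0. Its mutant arrays were spread more widely but all lay lower, and the change was -1.17 ± 0.27 (adjusted p = 0.0385). AT1G33811 (261981_at) gave 1729, 1836 and 1889.6 in rcb-10, against 3297, 2913 and 3091 in Col-0. Its arrays were tight in both genotypes, so that a smaller change of -0.77 ± 0.11 also passed (adjusted p = 0.0133). The other measured locus, AT5G33370, was at or below background on 4 of 6 arrays and did not pass (0.04 ± 0.47, adjusted p = 0.965).

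LTL1 (AT3G04290, 258589_at), a lipase of the same group that was named for tolerance to lithium, is known only through Supplementary Data 1. It gave 586, 678 and 751 in rcb-10, against 3889.9, 3195 and 4328 in Col-0, with no overlap. The means were 672 ± 82.3 in rcb-10 and 3804 ± 571 in Col-0 (SD, n = 3 each), a change of -2.50 ± 0.17 (SE), or 5.65-fold lower in rcb-10.

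**Figure D3:**
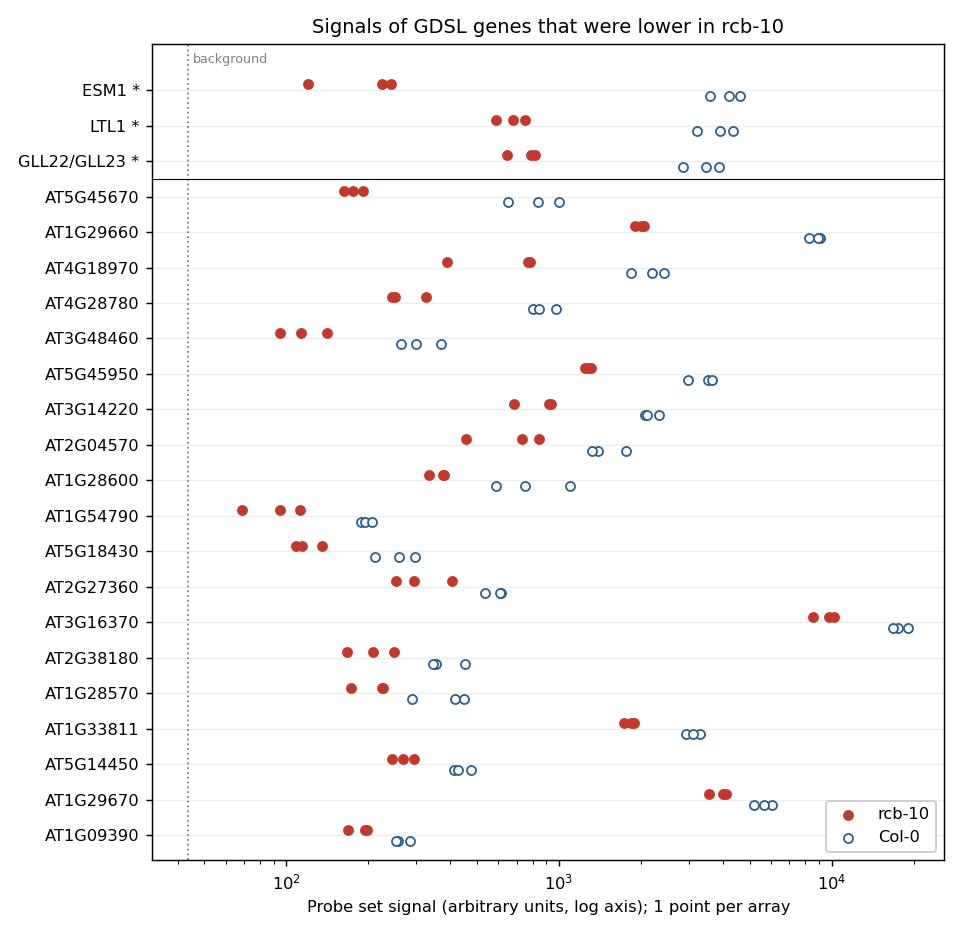
Signal of ESM1, LTL1 and the GLL22/GLL23 probe set (asterisks, named only through Supplementary Data 1) and of the 19 called GDSL genes on each array (x axis, linear intensity on a log scale), with rcb-10 drawn filled above Col-0 drawn open in each row. The dotted line is the background of 43.8, which every point exceeds, and in no row do the genotypes overlap.

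The loci grouped with FXG1, an alpha-fucosidase that trims xyloglucan of the cell wall, had 3 of 6 measured members called lower and a median of -0.60. AT1G54790 (264184_at) gave 68.7, 113 and 95.2 in rcb-10, against 188, 194 and 207 in Col-0. Its wild-type arrays were close together and all above the mutant arrays, a change of -1.12 ± 0.20 (adjusted p = 0.0216). AT5G14450 and AT1G09390 changed by -0.70 (adjusted p = 0.0215) and -0.51 (adjusted p = 0.0468). AT3G05180, which did not pass, gave 649.8, 796 and 792 in rcb-10, against 821, 856 and 709.7 in Col-0. The genotypes overlapped, and the change was -0.09 ± 0.14 (adjusted p = 0.697). AT1G56670 was at or below background on all 3 rcb-10 arrays, at 25.1, 7.99 and 40.3, against 93.4, 74.2 and 66.0 in Col-0. Its arrays did not overlap, and with low signals raised to background it was at least 1.76-fold lower and passed (adjusted p = 0.0223), whereas on the signals as deposited it did not (adjusted p = 0.0825). AT3G26430 is read by probe sets that it shares with AT3G26420. One (256882_at) gave 503, 646 and 711 in rcb-10, against 947, 783 and 931 in Col-0, and the other (256869_at) gave 139, 176 and 147 in rcb-10, against 162, 184 and 161 in Col-0. The genotypes were free of overlap on 256882_at alone. Neither change passed, at -0.53 (adjusted p = 0.0969) for 256882_at and -0.14 (adjusted p = 0.557) for 256869_at.

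Extracellular lipases of the EXL type are best known from the pollen coat and anther. None of their 3 measured loci was called, and the median was -0.53. AT1G75900 (262682_at) was the brightest, at 635, 756 and 781 in rcb-10, against 1162, 1543 and 945 in Col-0. The genotypes did not overlap, yet the spread of the Col-0 arrays was wide, and the change of -0.73 ± 0.21 missed the threshold (adjusted p = 0.0723). It passed with the dimmest 25% of probe sets left out (0.0259) and with limma's variance trend and robust variances (0.0093). AT1G75880, 1 coding gene away, also had no overlap (61.4, 73.0 and 76.0 in rcb-10, against 122, 98.4 and 85.0 in Col-0) and did not pass (-0.53, adjusted p = 0.102). The changes of these neighbours differed by 0.20, with the genotypes overlapping (exact permutation test, two-sided, p = 0.7 before adjustment).

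A cluster of lipase genes runs from AT1G28570 to ARAB-1 (AT1G28670), and 2 loci elsewhere, AT1G31550 and AT2G27360, were grouped with it. Of these 10 loci, 8 were measured and 3 were called lower, with a median of -0.29. AT1G28600 (262745_at) gave 378, 333 and 374 in rcb-10, against 1093, 753 and 589 in Col-0. The mutant arrays were close together while the wild-type arrays were not, and the change was -1.12 ± 0.24 (adjusted p = 0.034). AT1G28570 (262736_at) gave 224, 173 and 227 in rcb-10, against 289, 449 and 417 in Col-0. The genotypes did not overlap, and the change of -0.88 ± 0.22 had the highest adjusted p of the 19 calls (0.0486). AT2G27360, which the study lists among PIF-induced direct targets, gave 253, 406 and 293 in rcb-10, against 612, 608 and 534 in Col-0. All its mutant arrays were lower, a change of -0.91 ± 0.20 (adjusted p = 0.0363).

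The other 5 measured loci of this group did not pass. AT1G28580 (262749_at) gave 2776, 2897 and 3186 in rcb-10, against 2545, 2937 and 3111 in Col-0. The genotypes overlapped, and the change was 0.05 ± 0.13 (adjusted p = 0.843), turning to -0.02 after quantile normalization. AT1G28660 and ARAB-1 are not among these 5, since they share a probe set (262733_s_at). It gave 3128, 4289.7 and 4471 in rcb-10, against 4838, 5308 and 6188 in Col-0. Its arrays did not overlap, but its change of -0.47 ± 0.19 did not pass (adjusted p = 0.151). AT1G28640, at the edge of background, was the only member higher without overlap, at 47.3, 27.0 and 44.3 in rcb-10, against 18.1, 26.9 and 10.1 in Col-0 (1.17 ± 0.42, adjusted p = 0.113). With low signals raised to background its change was 0.04. AT1G28590 and AT1G28610 were at background on some arrays of both genotypes and did not pass. AT1G31550 stayed above background, with the genotypes overlapping (0.10 ± 0.20, adjusted p = 0.769).

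The remaining 22 loci, with no nearer grouping, had 21 measured members, 9 called lower and a median of -0.73. They include the members with the largest called changes. AT5G45670 (248912_at) gave 175, 163 and 192 in rcb-10, against 996, 839.8 and 653 in Col-0. The mutant arrays were tight and far below, a change of -2.21 ± 0.19 (adjusted p = 0.00467), or 4.63-fold lower. AT1G29660 (259786_at) gave 1899.9, 1992 and 2046 in rcb-10, against 9019.6, 8225 and 8937 in Col-0. Both genotypes were tight, and this was the member with the lowest adjusted p (change -2.14 ± 0.11, 0.00381), 4.41-fold lower. AT4G18970 (254609_at) gave 389.7, 773 and 779.9 in rcb-10, against 2194, 2428 and 1831 in Col-0. Replicate 1 of rcb-10 lay below the other mutant arrays, and all mutant arrays lay below Col-0 (-1.79 ± 0.31, adjusted p = 0.0196).

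AT3G48460 (252363_at) gave 95.0, 113 and 141 in rcb-10, against 299, 369 and 264 in Col-0. It was among the dimmer called members but kept its genotypes apart, with a change of -1.42 ± 0.21 (adjusted p = 0.0133). AT5G45950 (248921_at) gave 1243, 1285 and 1307 in rcb-10, against 3507, 3632 and 2981 in Col-0. Its mutant arrays hardly varied, and the change was -1.39 ± 0.12 (adjusted p = 0.00518). AT5G18430 (250043_at) gave 114, 135 and 109 in rcb-10, against 296, 211 and 258 in Col-0. The genotypes were again apart (-1.09 ± 0.17, adjusted p = 0.0161). AT2G38180 (267096_at) gave 167, 248 and 209 in rcb-10, against 354, 345 and 453 in Col-0. It too showed no overlap (-0.89 ± 0.20, adjusted p = 0.0358).

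AT3G16370 (259375_at), whose probe set had the highest signal of all 44, gave 8563, 9798 and 10219 in rcb-10, against 19110.5, 17442 and 16798 in Col-0. Every mutant array was far below every wild-type array, a change of -0.90 ± 0.13 (adjusted p = 0.0123). AT1G29670, beside AT1G29660, gave 4082, 3534 and 3979 in rcb-10, against 5191, 6024 and 5661 in Col-0. Its genotypes did not overlap, and its change of -0.54 (adjusted p = 0.038) was the smaller of this pair. AT5G55050, which did not pass, gave 324, 682 and 665 in rcb-10, against 493, 724 and 629 in Col-0. The genotypes overlapped widely (-0.20 ± 0.34, adjusted p = 0.727). RXF26 (AT1G58430), AT1G06990 and the probe set shared by AT2G30310 and AT2G30220 were at or below background on all 6 arrays.

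The changes of neighbouring members were also set against each other. In 7 pairs of neighbours with single-gene probe sets, the log2 difference between the members was taken on each array and compared between genotypes by an exact permutation test (two-sided), which cannot give a p below 0.1 with 3 arrays against 3. The genotypes did not overlap for AT1G29660 against AT1G29670 (difference of changes -1.60), AT1G28570 against AT1G28580 (-0.92) and AT1G28600 against AT1G28610 (-0.89), each at an exact p of 0.1, the smallest possible, or 0.175 adjusted over the 7 pairs. The same p came from AT1G28610 against AT1G28640 (-1.40), but both were at or below background on several arrays. With low signals raised to background their changes were -0.11 and 0.04, so nothing is read from that pair. The difference between AT1G28600 and AT1G28610 is limited in the same way, since AT1G28610 was at or below background on 2 rcb-10 arrays and 1 Col-0 array. The genotypes overlapped for AT1G28580 against AT1G28590 (0.40, exact p = 0.9) and AT1G28590 against AT1G28600 (0.76, exact p = 0.5). With AT1G75880 and AT1G75900, the adjusted p of these 3 pairs was 0.7 to 0.9. The order of genes is that of the TAIR10.1 annotation.

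**Figure D4:**
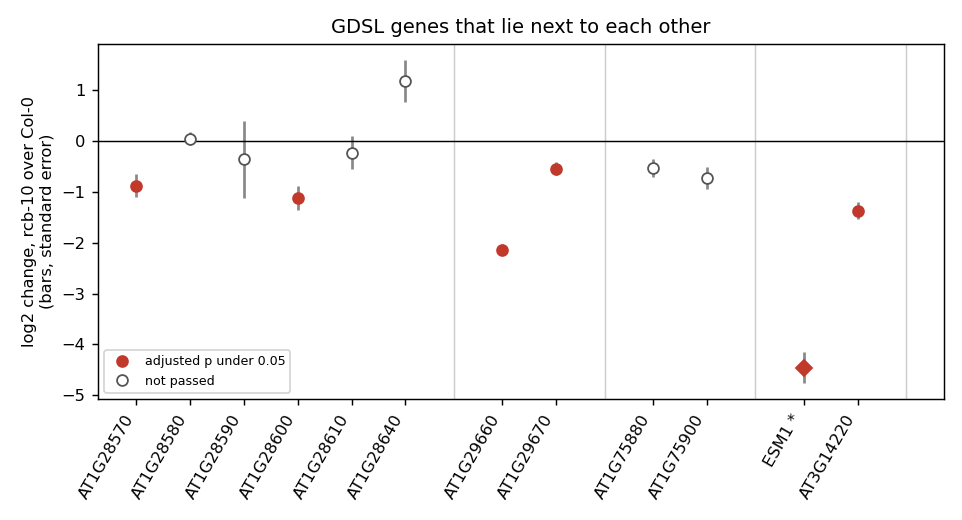
Log2 change, rcb-10 over Col-0 (y axis, bars of 1 SE), of GDSL genes in 4 chromosomal clusters, in gene order (x axis). ESM1 (diamond with an asterisk, named only through Supplementary Data 1) stands at -4.46 beside AT3G14220 at -1.37, AT1G29660 at -2.14 beside AT1G29670 at -0.54, and AT1G28580 at 0.05 between called and uncalled neighbours, while AT1G28590, AT1G28610 and AT1G28640 were at background on some arrays.

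Other genes of the pathways in which ESM1 and the cutin synthases act were read from lists made by function, with earlier results of these data known. In each list, only genes with a single-gene probe set in the probe table were read. The others were left out whether or not they changed, so the counts do not describe the whole pathways. Of 19 genes for glucosinolate breakdown and ER bodies, 3 were measured and 0 were called. NAI2, a component of ER bodies, gave 3918, 4253 and 4496 in rcb-10, against 5446, 4912 and 4716 in Col-0 (-0.25, adjusted p = 0.214). NAI1, the transcription factor that controls them, gave 342, 322 and 360.2 in rcb-10, against 427, 379 and 438 in Col-0 (-0.28, adjusted p = 0.167). Neither overlapped between genotypes, which was so for 40.6% of all probe sets, and neither passed. PYK10, the ER body's beta-glucosidase, stood at -0.09 (adjusted p = 0.677).

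Of 24 genes for glucosinolate synthesis, regulation and transport, 6 were measured, 1 was called lower and 0 higher, with a median of -0.27. Since 10.2% of all probe sets were called lower, 1 call among 6 is not read as a result for this list. The call was AT1G24100 (UGT74B1), which adds the glucose of the glucosinolate core. It gave 399, 343 and 352 in rcb-10, against 619, 494 and 541 in Col-0 (-0.59 ± 0.14, adjusted p = 0.04). Its arrays did not overlap, but the call was lost whichever array was left out (adjusted p up to 0.124) and with arrays centred on their medians (0.0984). AT3G19710 (BCAT4), an aminotransferase of methionine chain elongation, was at background on all arrays. Of 24 genes for cutin and cuticle formation, 1 was measured, the regulator AT5G25390 (SHN3), at or below background throughout (-0.27, adjusted p = 0.668).

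Leaving out 1 array at a time left 7 of the 19 calls in place in all 6 refits, with adjusted p-values of at most 0.0263 to 0.0493. These were AT1G29660, AT3G14220, AT3G16370, AT3G48460, AT4G28780, AT5G45670 and AT5G45950. AT1G09390, AT1G29670, AT2G04570 and AT2G38180 passed in none of the refits, with highest adjusted p-values of 0.0976 to 0.134. The other 8 passed in some: AT1G28570 only without Col-0 replicate 1, AT1G28600 only without Col-0 replicate 3, AT2G27360 only without rcb-10 replicate 2 and AT5G14450 only without rcb-10 replicate 1. AT1G54790 passed without rcb-10 replicate 1 or 2. AT1G33811 was lost without rcb-10 replicate 2 or 3, AT4G18970 without Col-0 replicate 1 or 2, and AT5G18430 without rcb-10 replicate 1 or 3 or Col-0 replicate 1. The genotypes did not overlap for any of the 19, so leaving out 1 array could not turn a direction, and nothing is read from that.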

How the data were processed

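RNA of whole seedlings was hybridised to Affymetrix GeneChip ATH1 arrays, 3 independently grown biological replicates of each genotype. The authors named GeneSpring GX 12.1 and robust multiarray average (RMA). The deposited values are linear intensities, not log2 values, and share a 2% trimmed mean of 500.04 on every array. The sources used here do not name the step that set it. For the present tests, log2 of the deposited intensities of all 22746 probe sets other than array controls was fitted with limma 3.58.1 (R 4.3.3) without further normalization or filter, and p-values were adjusted by Benjamini-Hochberg over all of them. The authors' own columns of fold changes and p-values in their supplementary tables were not used.

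Probe sets were named through the platform's probe table, with gene IDs placed on loci by the TAIR10.1 annotation. A member with several single-gene probe sets was represented by the one with the highest mean. The loci were grouped from general knowledge of the family, with no sequence comparison. RCB itself had no named probe set and was not analysed here, and sequences of the members were not used here. Per-array values are given for the 16 called members with the largest change, for loci read only through Supplementary Data 1 or shared probe sets, and for the 4 brightest members that did not pass. A few others were added after their values were seen. The members and lists were chosen with earlier results of these data known.

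Background was set by the brightest reading among 3 trp control probe sets. A bound on the fold was taken where the lower genotype was at background on all arrays and the other was above it on at least 1. The signals of the lower genotype were raised to background, and a bound was kept only above 1. The fit was also run on simulated arrays with added changes of 3-fold and 6-fold. Most called members changed by less than 3-fold, so that run is no check of their calls. Alternatives were quantile normalization, median centring, leaving out the dimmest 25% of probe sets, limma's variance trend together with robust variances, the methods' t-test, a replicate block, raised low signals, other probe set choices and leaving out each array. Tables were handled in Python 3.11.15 with pandas 2.3.3 and scipy 1.17.1, and matplotlib 3.10.9 drew the figures. Precision is limited by having 3 arrays a genotype.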

Additional observations from a re-analysis of the deposited data

How the results depend on the processing

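The 19 calls lower in rcb-10 became 16 after quantile normalization, 13 after median centring or by the methods' t-test, 21 (of 33 members tested) without the dimmest 25% of probe sets, 21 with a variance trend and robust variances together, and 8 to 11 when 1 array was left out. The share of all probe sets called lower moved as well, to 8.47% (quantile normalization), 6.56% (median centring), 8.04% (t-test), 20.0% (without dim probe sets), 15.6% (variance trend and robust variances) and 3.44% to 5.53% (without 1 array), against 10.2%. With low signals raised to background 19 were called, 18 of them the same genes, with AT1G28570 lost (adjusted p = 0.0566) and AT1G56670 gained (0.0223), against 12.3% of all probe sets. Calls higher stayed at 0, or 1 without Col-0 replicate 2 (AT1G71250, near background). The 11 calls with at least a 2-fold change became 7 after median centring and 7 to 10 without 1 array. The median change of -0.64 became -0.58 after quantile normalization, -0.47 after median centring, -0.77 without dim probe sets, -0.54 with low signals raised, and -0.73 to -0.57 without 1 array. Median centring moved the median of all probe sets by 0.17, and its calls over all probe sets were 1493 lower and 2553 higher, against 2315 and 1538. The 1 call of the glucosinolate and cuticle lists became 0 after quantile normalization, after median centring and whichever array was left out, and 2 without dim probe sets or with a variance trend and robust variances.

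Replicate numbers did not pair the arrays (deviations of same-numbered arrays correlated at -0.02 to 0.03). With the number as a replicate block, 0 of all probe sets passed, so the calls lower, those of at least 2-fold and the list call were all 0. At an unadjusted p under 0.05, 22 members lay lower. Each block holds 1 array of each genotype, so the changes themselves, such as -4.46 for ESM1, could not move.

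Small changes turned sign in some settings. The change of AT1G28580 was -0.020 after quantile normalization and -0.036 to 0.11 with 1 array left out (below 0 without rcb-10 replicate 3, at -0.0094, and without Col-0 replicate 1). That of AT3G05180 was 0.076 after median centring and -0.17 to 0.0021 with 1 array left out (above 0 without rcb-10 replicate 1). AT5G55050 ranged from -0.39 to 0.15 (above 0 without rcb-10 replicate 1) and AT5G25390 from -0.56 to 0.11 (above 0 without Col-0 replicate 2). The AT3G26430 probe set 256869_at was at 0.030 after quantile normalization and 0.035 after median centring. None of these passed a threshold, and the cause was not tested.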

Other observations

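Of the members that did not pass, AT4G26790 had signals of 48.2, 5.45 and 68.3 in rcb-10, against 157, 148 and 87.1 in Col-0 (-2.27 ± 0.99, adjusted p = 0.177). Its genotypes did not overlap, but 1 rcb-10 array was at background, and with low signals raised to it the change was -1.27. AT1G71250 had 35.9, 56.4 and 88.3 in rcb-10, against 2.05, 47.8 and 4.82 in Col-0 (2.86 ± 1.19, adjusted p = 0.16), with both genotypes reaching background and overlapping, and with low signals raised the change was 0.42. Among the brighter members, AT2G23540 had 671, 569 and 529.7 in rcb-10, against 299, 559 and 526 in Col-0 (0.40 ± 0.27, adjusted p = 0.367), where Col-0 replicate 1 stood apart from the other arrays. AT1G74460 had 494, 486 and 474 in rcb-10, against 459, 551 and 497 in Col-0, with the genotypes overlapping (-0.05 ± 0.12, adjusted p = 0.816).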
